A study of Mus musculus with 25 samples.

Results

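The Serpina1 and Serpina3 families are clusters of closely related genes for secreted and intracellular protease inhibitors. Their members were taken by symbol from the table of counts: 5 Serpina1 genes (Serpina1a, Serpina1b, Serpina1c, Serpina1d and Serpina1e) and 4 Serpina3 genes (Serpina3g, Serpina3k, Serpina3m and Serpina3n), 9 of the 37085 symbols listed. The measurement was sequencing of the 3′ ends of polyadenylated RNA from sorted hepatocytes of C57BL/6 mice. Libraries came from mice given a NASH diet, one that produces fatty liver with inflammation (nonalcoholic steatohepatitis), for 1 week (4 libraries), 2 weeks (3), 3 weeks (4), 4 weeks (3), 5 weeks (3) or 6 weeks (3), and from mice on normal diet for 0 weeks of NASH diet (5). The labels give neither genetic change, drug, age nor sex for any group, and number the libraries without stating whether they are different mice. The p-values therefore describe variation among the libraries, which may be technical.

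Serpins inhibit serine proteases by offering a reactive loop as bait: the protease cuts the loop and is then trapped on the serpin. Human SERPINA1 encodes alpha-1-antitrypsin, made mainly by hepatocytes and best known as the plasma inhibitor of neutrophil elastase, and human SERPINA3 encodes alpha-1-antichymotrypsin, an inhibitor of cathepsin G and an acute phase protein. In mice each human gene corresponds to a set of tandem copies whose reactive loops differ, so that the copies need not inhibit the same protease.

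All 9 genes passed the filter on low counts, among 11869 genes tested. The lowest of them, Serpina3g, had 7 to 46 counts in the normal-diet libraries. Library totals ran between 5281143 and 10015751 counts. Levels below are CPM, counts brought to a common library total and scaled for library composition with edgeR's TMM factors, and a gene is called changed when its Benjamini-Hochberg adjusted p in edgeR's quasi-likelihood test, over all genes tested, is below 0.05. Fold changes are log2 with the standard error of the test. Composition moved with the diet: TMM factors averaged 1.14 at week 5 and 1.12 at week 6, against 0.905 on normal diet, so each member's direction was also checked with library size only. That setting raised the median log2 change of all genes by 0.34 at week 5 and 0.30 at week 6. It also changed the split of calls, which was 2268 higher and 1929 lower genes at week 5 with TMM, and 3790 higher and 364 lower genes with library size only.

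The labelled cell type was present in its markers, and so were others. The 12 hepatocyte markers summed to 67333 to 75158 CPM at week 5 and 72431 to 73282 CPM at week 6, against 89021 to 101676 CPM on normal diet. Their sum was 74970 to 83098 CPM at week 1 and 76012 to 93665 CPM at week 2. It was 66946 to 86810 CPM at week 3 and 83649 to 91441 CPM at week 4. The 12 Kupffer cell markers summed to 1671 to 1872 CPM at week 5 and 1439 to 1651 CPM at week 6, against 170 to 617 CPM on normal diet. The 2 lowest of these normal-diet sums belonged to libraries 1 and 5, with 190 and 170 CPM. In bulk RNA, fewer cells of a type and less RNA per cell cannot be told apart.

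Because the copies are alike, part of each family's reads may not belong to 1 gene. In the last 300 bases of the annotated transcripts (GENCODE M21), the share of 50-base windows found in no other transcript was 43.4% for Serpina1a, 62.2% for Serpina1b, 84.1% for Serpina1c, 55.4% for Serpina1d and 81.7% for Serpina1e. Serpina3k, Serpina3m and Serpina3n shared no window with another transcript, and Serpina3g shared 11 of 251 windows with its neighbour Serpina3f. The sources used here do not give the handling of reads that match several genes. Values for Serpina1a, Serpina1b and Serpina1d are therefore the least certain as values of a single gene.

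During the first 3 weeks no member was called. In week 1, 0 of 9 passed edgeR's test against 1.2% of all genes, in week 2, 0 of 9 against 0.885%, and in week 3, 0 of 9 against 0.851%. DESeq2 and limma voom also called 0 in each of these weeks. An unadjusted p below 0.05 was found for 5 members in week 1, 0 in week 2 and 6 in week 3, and the smallest adjusted p was 0.202. The share of all genes under that unadjusted cut is not given here, so these counts do not show whether the members stood out. Libraries of the diet and of normal diet did not overlap for 3 members in week 1 (Serpina1b, Serpina1c and Serpina1d, each lower), against 4.42% of all genes, for 0 in week 2, against 6.89%, and for 2 in week 3 (Serpina1a and Serpina1d), against 5.06%.

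From week 4 on, members were called: 4 of 9 in week 4, 7 in week 5 and 6 in week 6, where 8.28%, 35.4% and 26.8% of all genes were. In week 4, 3 of 9 fell (Serpina1a, Serpina1e and Serpina3k), where 2.86% of all genes fell, and 1 rose (Serpina3m), where 5.43% rose. In week 5, 6 of 9 fell (all 5 Serpina1 genes and Serpina3k), where 16.3% of all genes fell, and 1 rose (Serpina3g), where 19.1% rose. In week 6, 5 of 9 fell (Serpina1a, Serpina1b, Serpina1d, Serpina1e and Serpina3k), where 10.5% of all genes fell, and Serpina3g alone rose, where 16.3% rose. Libraries of the diet and of normal diet did not overlap for 4 members in week 4, 7 in week 5 and 6 in week 6, against 13.5%, 38.3% and 26.6% of all genes. With library size only, the members that fell at weeks 5 and 6 were Serpina1a, Serpina1e and Serpina3k, 3 of 9 at each week, where 3.07% and 1.93% of all genes fell.

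**Figure D1:**
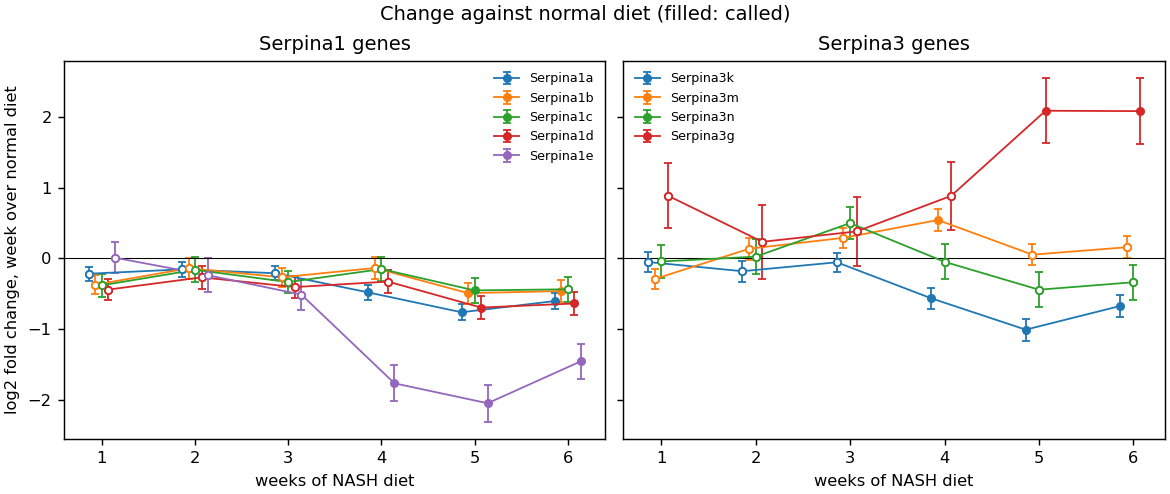
Log2 fold change of each member against normal diet (y axis) by weeks of NASH diet (x axis), with standard errors; filled points are called and open points are not. Serpina1e falls away from the other Serpina1 genes at week 4 and lies at -2.05 at week 5, and Serpina3g lies at 2.09 at weeks 5 and 6.

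Serpina1e had the largest decrease of any member. Its levels were 5935, 3332.5 and 3118 CPM at week 4, 3748, 2767 and 3667 CPM at week 5 and 4921, 6110 and 4342 CPM at week 6. On normal diet they were 13493, 16362, 16161, 12968 and 11466 CPM. Every library of weeks 4 to 6 lay below every normal-diet library. The log2 fold change against normal diet was -1.77 ± 0.26 (SE) at week 4 (adjusted p = 0.000181, edgeR), -2.05 ± 0.26 at week 5 (adjusted p = 6.94e-06, edgeR) and -1.46 ± 0.25 at week 6 (adjusted p = 0.000201, edgeR). Those are levels 3.41-fold, 4.15-fold and 2.75-fold lower. With library size only the decreases were -1.58, -1.72 and -1.16, and all 3 were still called.

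In week 1 Serpina1e stood at its normal-diet level, with 14302, 14932, 14153 and 13335 CPM and a log2 fold change of 0.01 ± 0.22. Week 2 was spread out, with 7637, 11909 and 16258 CPM. In week 3 library 1 had 15116 CPM and the others 8412, 7454 and 8517 CPM, so that 3 of 4 libraries lay below the normal-diet range and the other inside it. Ordered by their means, the groups ran 3394 ± 545 CPM (SD, n = 3) at week 5, 4129 ± 1568 (n = 3) at week 4, 5124 ± 902 (n = 3) at week 6, 9875 ± 3527 (n = 4) at week 3, 11935 ± 4311 (n = 3) at week 2, 14090 ± 2118 (n = 5) on normal diet and 14180 ± 657 (n = 4) at week 1. Neighbours in that order overlapped in their libraries, apart from weeks 6 and 3. Over weeks 1 to 6 the linear slope was -0.40 ± 0.045 log2 units a week (adjusted p = 3.50e-06, edgeR), and 4 of 9 members had a slope called, where 33.9% of all genes did. Of these, 3 sloped down (Serpina1a, Serpina1e and Serpina3k), as 14.9% of all genes did, and Serpina3g sloped up, as 18.9% did.

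**Figure D2:**
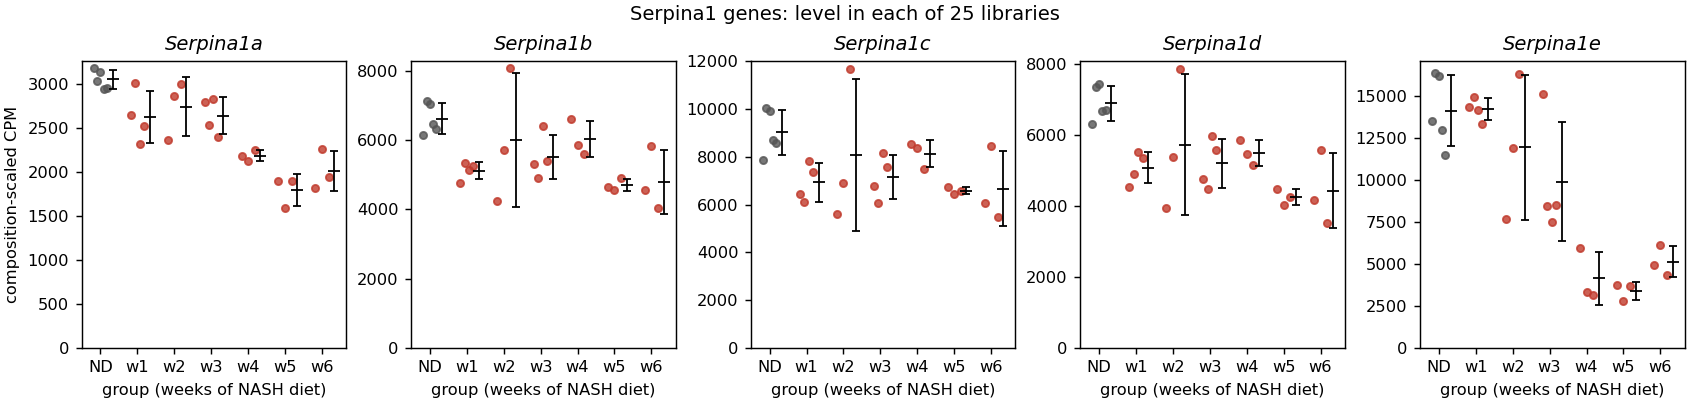
Level of each Serpina1 gene in composition-scaled CPM (y axis, from 0) in each library (points) of normal diet (grey) and of NASH diet weeks 1 to 6 (red), with the mean and SD beside them (black). Serpina1e libraries of weeks 4 to 6 sit between 2767 and 6110 CPM, below the lowest normal-diet library at 11466 CPM.

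The sequence in front of Serpina1e is close to that of its neighbours. RefSeq promoter entries (GRCm38.p6) were found for 7 of the 9 members, and the 250 bases before the annotated start were compared. Serpina1e (chr12:103956898-103957147, minus strand) and Serpina1b (chr12:103738190-103738439, minus strand), the closest pair, are shown because their levels separated during the diet. Their annotated starts are staggered, so that 198 bases align, of which 194 are identical, and Serpina1b has 2 further bases inside the aligned stretch that have no partner in Serpina1e and are not marked. Capitals mark the 4 aligned positions at which they differ.
Serpina1e: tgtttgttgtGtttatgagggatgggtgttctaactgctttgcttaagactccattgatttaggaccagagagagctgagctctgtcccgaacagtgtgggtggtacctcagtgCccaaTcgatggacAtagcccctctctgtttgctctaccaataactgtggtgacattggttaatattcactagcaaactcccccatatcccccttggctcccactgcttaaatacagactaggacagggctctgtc
Serpina1b: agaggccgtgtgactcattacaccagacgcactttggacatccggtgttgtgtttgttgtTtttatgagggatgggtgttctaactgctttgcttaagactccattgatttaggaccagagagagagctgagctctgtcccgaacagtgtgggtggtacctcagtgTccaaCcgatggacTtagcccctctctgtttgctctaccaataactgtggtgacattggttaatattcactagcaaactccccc
Identity between the aligned parts of any pair of the 5 Serpina1 windows was 92.1% to 98.0%. The letters TTGCNNAA, a form of the C/EBP motif, were found on either strand in the windows of Serpina1b, Serpina1d and Serpina1e and not in those of Serpina1a or Serpina1c, and 9.56% of all 32851 RefSeq windows held them. No Serpina1 window held the STAT letters TTCNNNGAA or the HNF1 letters, GTTAAT and TTAA with any 2 bases between them, which 7.02% and 0.131% of all windows held. Only exact letters were counted. A stretch near the HNF1 letters, such as gttaatattcac in both windows shown, was therefore missed, and the search does not show that such sites are absent.

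The other Serpina1 genes fell less. Serpina1a had 1898, 1587 and 1898 CPM at week 5 and 1815, 2255 and 1941 CPM at week 6. Its normal-diet libraries had 3176, 3032, 3136, 2944 and 2954 CPM, a narrow range that no library of weeks 4 to 6 reached. The log2 fold change was -0.48 ± 0.11 at week 4 (adjusted p = 0.0124, edgeR), -0.76 ± 0.11 at week 5 (adjusted p = 2.41e-05, edgeR) and -0.60 ± 0.11 at week 6 (adjusted p = 0.000321, edgeR). Under library size only it was -0.32, -0.43 and -0.30, and called each time. The week 4 call ended without library 1 or library 2 of that week (adjusted p = 0.0734 and 0.0631, edgeR).

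Serpina1d had 4473, 4022 and 4256 CPM at week 5 and 4175, 5585 and 3511 CPM at week 6, against 6298, 7361, 7446, 6663 and 6703 CPM on normal diet. Both weeks lay wholly below normal diet. Its log2 fold change was -0.70 ± 0.17 at week 5 (adjusted p = 0.00207, edgeR) and -0.64 ± 0.17 at week 6 (adjusted p = 0.00554, edgeR), but -0.36 and -0.34 with library size only, neither called (adjusted p = 0.0755 and 0.110). Without library 3 of week 6 the week 6 call was also lost, at -0.50 (adjusted p = 0.0533).

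Serpina1b had 4646, 4560 and 4902 CPM at week 5 and 4552, 5828 and 4030 CPM at week 6, against 6159, 7141, 7043, 6466 and 6315 CPM on normal diet. These did not overlap either, and the log2 fold change was -0.49 ± 0.15 at week 5 (adjusted p = 0.0128, edgeR) and -0.46 ± 0.15 at week 6 (adjusted p = 0.0238, edgeR). Scaling by library size alone gave -0.16 at both weeks, not called. Leaving out library 2 of week 5 ended that week's call (adjusted p = 0.0504), and leaving out library 1 or 3 of week 6 ended the call of week 6 (adjusted p = 0.0912 and 0.143).

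Serpina1c had 6741, 6458 and 6559 CPM at week 5, against 7877, 10064, 9930, 8698 and 8563 CPM on normal diet. The log2 fold change of -0.45 ± 0.18 passed narrowly (adjusted p = 0.0478, edgeR) and was not called with library size only (-0.12), with DESeq2 size factors (-0.40), or when any of normal-diet libraries 2 to 5 or of the week 5 libraries was left out (adjusted p from 0.0555 to 0.116). At week 6 it had 6075, 8438 and 5462 CPM and a log2 fold change of -0.44 (95% interval -0.81 to -0.066), which missed the threshold (adjusted p = 0.0683, edgeR).

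By weeks 5 and 6 Serpina1e had fallen relative to each of its paralogs in the family. This was tested on ratios inside each library, which no scaling between libraries can move. The ratios reuse the counts behind the fold changes above, and these weeks were pooled with earlier results of the data known. The log2 ratio of Serpina1a to Serpina1e averaged -1.13 ± 0.27 (SD, n = 6) over weeks 5 and 6, against -2.20 ± 0.20 (n = 5) on normal diet, a difference of 1.07 (exact two-sided permutation test, p = 0.00433). For Serpina1b the difference was 1.27, for Serpina1c 1.30 and for Serpina1d 1.08, each with the same exact p, the smallest that 6 against 5 libraries allow, and an adjusted p of 0.0101 over the 14 ratio tests made. All 6 late libraries lay above all 5 normal-diet libraries for each of the 4 ratios. Over all of weeks 1 to 6, these 4 ratios did not pass (adjusted p from 0.0905 to 0.195, exact enumeration). Those weeks include week 1, where the share of Serpina1e lay above normal diet, as given below.

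Serpina1e held 15.6% ± 4.1 of the Serpina1 counts in week 4 libraries, 16.3% ± 1.8 in week 5 and 22.3% ± 0.61 in week 6 (SD over 3 libraries each), against 35.4% ± 2.3 on normal diet (n = 5). Serpina1c held 31.4%, 31.8% and 28.8% in those weeks, against 22.7% on normal diet, and took the place of Serpina1e as the gene with most counts. Serpina1a held 8.64% at week 5, against 7.73% on normal diet. In week 1 Serpina1e had instead held more, 41.8% ± 2.2 (SD, n = 4). Its week 1 libraries ran from 39.4% to 43.8%, all above the normal-diet maximum of 37.2%. Serpina1e held 34.4% ± 2.1 (n = 3) in week 2 and 32.1% ± 8.2 (n = 4) in week 3. These are shares of 3′ end counts, in which a transcript gives reads from its end whatever its length.

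**Figure D3:**
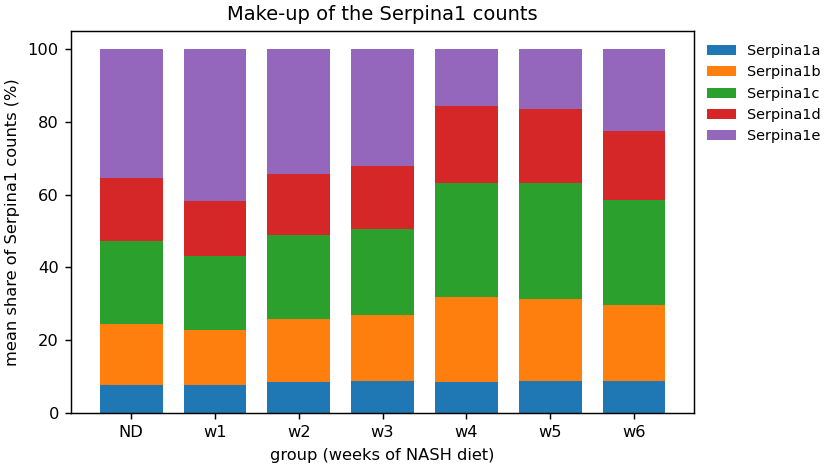
Mean share of the Serpina1 counts held by each gene (y axis, percent, stacked to 100) on normal diet and at weeks 1 to 6 of NASH diet. The top segment, Serpina1e, is 16.3% at week 5, against 35.4% on normal diet.

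All 5 Serpina1 genes summed to 2.37% ± 0.11 of all counts at week 5 and 2.57% ± 0.49 at week 6, against 3.59% ± 0.39 on normal diet (SD). On the composition-scaled level the sum changed by -0.94 log2 units at week 5 and -0.79 at week 6, and with library size only by -0.60 and -0.49. Other changes moved the same way in these libraries: 8 of 12 hepatocyte markers fell at week 5 and at week 6, with medians of -0.60 and -0.49, with Apoa1, the gene of apolipoprotein A-I, at -0.73 and -0.46, while Alb, the albumin gene, did not pass (-0.31, adjusted p = 0.0603 at week 5, edgeR, and 0.03 with library size only). Under library size only 3 of the 12 fell at week 5 and 2 at week 6, with medians of -0.26 and -0.19, and Apoa1 was called at week 5 (-0.39) but not at week 6 (-0.16, adjusted p = 0.418). Of all genes, 16.3% fell at week 5 and 10.5% at week 6, and 3.07% and 1.93% did with library size only. At weeks 1 and 3, where no member was called, the hepatocyte marker sum also lay wholly below normal diet. That sum overlapped normal diet at week 2, and at week 4, where Serpina1a, Serpina1e and Serpina3k were called lower. The part of cell composition in the members' decreases was not tested.

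Serpina3k carried nearly all Serpina3 counts, 94.9% at week 5 and 97.0% on normal diet. It encodes a secreted kallikrein-binding serpin of mouse plasma. At week 4 it had 8211, 8833 and 9922 CPM, at week 5 6583, 6699 and 6531 CPM and at week 6 7533, 9867 and 7600 CPM. On normal diet it had 14092, 12431, 15266, 11054 and 13715 CPM, so that weeks 4 to 6 lay wholly below. The log2 fold change was -0.57 ± 0.15 at week 4 (adjusted p = 0.0245, edgeR), -1.01 ± 0.15 at week 5 (adjusted p = 3.19e-05, edgeR) and -0.67 ± 0.15 at week 6 (adjusted p = 0.00176, edgeR). Library size only gave -0.40, -0.67 and -0.37, all called. Week 4 rested on few libraries: the call ended without normal-diet library 1 (adjusted p = 0.0552), without both normal-diet libraries 1 and 5 (0.115), or without library 1 or 2 of week 4 (0.159 and 0.0964). In weeks 1 to 3 Serpina3k lay between -0.18 and -0.05 and was not called, with 0.07 at week 1 and 0.04 at week 3 under library size only.

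**Figure D4:**
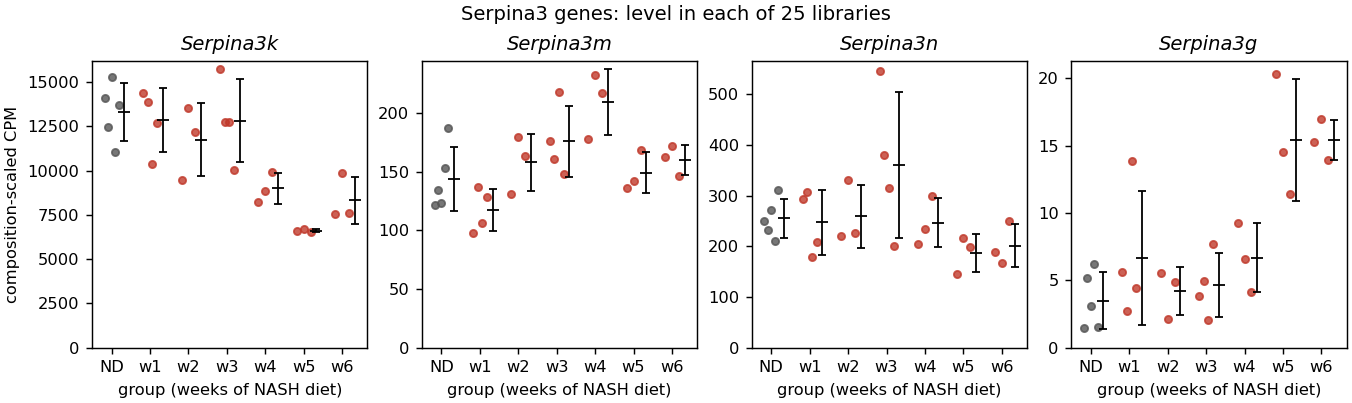
Level of each Serpina3 gene in composition-scaled CPM (y axes, from 0, differing between panels) in each library (points) of normal diet (grey) and of NASH diet weeks 1 to 6 (red), with the mean and SD beside them (black). Serpina3k sits between 6531 and 6699 CPM at week 5, and Serpina3g between 11.4 and 20.3 CPM.

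Serpina3m did not follow Serpina3k. It had 178, 233 and 217 CPM at week 4, against 122, 134, 123, 153 and 187 CPM on normal diet, with 1 of the week 4 libraries inside the normal-diet range. The log2 fold change of 0.54 ± 0.15 was called at week 4 (adjusted p = 0.0289, edgeR), but not after leaving out normal-diet library 1, 2 or 3 (adjusted p from 0.0531 to 0.0759) or any library of week 4 (0.0539 to 0.160). At weeks 5 and 6 it was 0.05 and 0.16 and not called, while with library size only it was 0.39 and 0.46 and called (adjusted p = 0.0282 and 0.0121). Relative to Serpina3k in the same library, Serpina3m was higher by 0.96 log2 units over weeks 5 and 6, with an exact permutation p of 0.00433 (adjusted p = 0.0101) and no overlap between the 6 late and 5 normal-diet libraries.

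Serpina3n, an acute phase serpin that inhibits granzyme B in mice, was called at no week. It had 545, 380, 314 and 202 CPM at week 3, against 249, 232, 273, 210 and 311 CPM on normal diet. That is 3 libraries above the normal-diet range and 1 below it, with a log2 fold change of 0.50 ± 0.23 (adjusted p = 0.335, edgeR). At week 5 it had 145, 217 and 199 CPM, a log2 fold change of -0.44 (95% interval -0.97 to 0.084), and -0.10 with library size only. Its ratio to Serpina3k differed by 0.44 over weeks 5 and 6 (adjusted p = 0.0788, exact permutation test).

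Serpina3g moved the other way, at a low level. In mice it encodes Spi2A, an intracellular serpin known from leukocytes that inhibits lysosomal cathepsins. It had 20.3, 14.5 and 11.4 CPM at week 5 and 15.3, 17.0 and 14.0 CPM at week 6, against 1.45, 5.17, 3.12, 6.19 and 1.53 CPM on normal diet. All 6 late libraries lay above all 5 normal-diet libraries. The log2 fold change was 2.09 ± 0.46 at both weeks (adjusted p = 0.00125 at week 5 and 0.00201 at week 6, edgeR), which is 4.26-fold and 4.25-fold higher, and 2.42 and 2.38 with library size only. In weeks 1 to 4 it was not called, and week 1 held 1 library at 13.9 CPM beside 5.59, 2.75 and 4.43 CPM. Relative to Serpina3k it was higher by 3.11 log2 units over weeks 5 and 6, with an exact permutation p of 0.00433 (adjusted p = 0.0101). Over all of weeks 1 to 6 that ratio was higher by 1.54 (adjusted p = 0.0446, exact test), but by 0.89 without normal-diet libraries 1 and 5 (adjusted p = 0.283). Its slope over weeks 1 to 6 was 0.34 ± 0.081 a week (adjusted p = 0.00243, edgeR).

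Markers of other liver cells were higher in the same weeks as Serpina3g, and part of them earlier. Of the 12 Kupffer cell markers 12 rose at week 5 and 11 at week 6, of the 12 markers of sinusoidal endothelial cells 12 and 12, of the 12 markers of monocytes and macrophages 11 and 12, and of the 12 stellate cell markers 11 and 11. Of all genes, 19.1% rose at week 5 and 16.3% at week 6. The 2 most abundant markers of each list, Cd5l and C1qb, Aqp1 and Dnase1l3, Lyz2 and H2-Aa, and Dcn and Ecm1, rose by 1.82 (Dnase1l3, week 6) to 2.61 (Dcn, week 5) log2 units. At week 4, where Serpina3g was not called (0.89, adjusted p = 0.279, edgeR), 10 of 12 stellate markers, 6 of 12 endothelial markers, 4 of 12 monocyte and macrophage markers and 2 of 12 Kupffer cell markers had risen. Of all genes, 5.43% rose at week 4. No marker of these 4 lists was at 0 in every library of weeks 5 or 6 or of normal diet. The endothelial markers summed to 1625 to 1835 CPM at week 5, against 171 to 689 CPM on normal diet, the markers of monocytes and macrophages to 674 to 920 CPM, against 50.0 to 389 CPM, and the stellate markers to 482 to 1004 CPM, against 76.5 to 156 CPM. The 10 lymphocyte markers summed to 40.7 to 45.3 CPM at week 5, against 5.70 to 19.3 CPM on normal diet. Of the 2 tested lymphocyte markers Ptprc rose at both weeks (1.98 and 1.94), while Cd4 stood at -0.63 at week 5, not called, and fell at week 6 (-1.42, adjusted p = 0.0323, edgeR, and 0.0889 with library size only). Of the other lists with few tested genes, 1 of 3 neutrophil markers (Csf3r) and 2 of 4 cholangiocyte markers (Bicc1 and Spp1, which is also on the monocyte and macrophage list) rose at week 5. The neutrophil marker S100a8 was not called there (0.77, adjusted p = 0.491, edgeR). The cholangiocyte marker Sox9 stood at -0.67 (adjusted p = 0.0729, edgeR). It was called lower at week 4 (-0.98, adjusted p = 0.0403, edgeR, and 0.0674 with library size only). Normal-diet libraries 1 and 5, lowest in Serpina3g, were also lowest in the Kupffer, endothelial and monocyte sums. The library highest in Serpina3g also had the highest Kupffer sum of its group on normal diet and in weeks 1, 2, 4 and 5. In weeks 3 and 6 it did not. Week 3 library 4 led in Serpina3g with a Kupffer sum of 641 CPM, against 891 CPM in library 2. Week 6 library 2 led with 1625 CPM, against 1651 CPM in library 1. Without normal-diet libraries 1 and 5 the calls at weeks 5 and 6 stayed. The part of these cells in the Serpina3g counts was not tested.

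**Figure D5:**
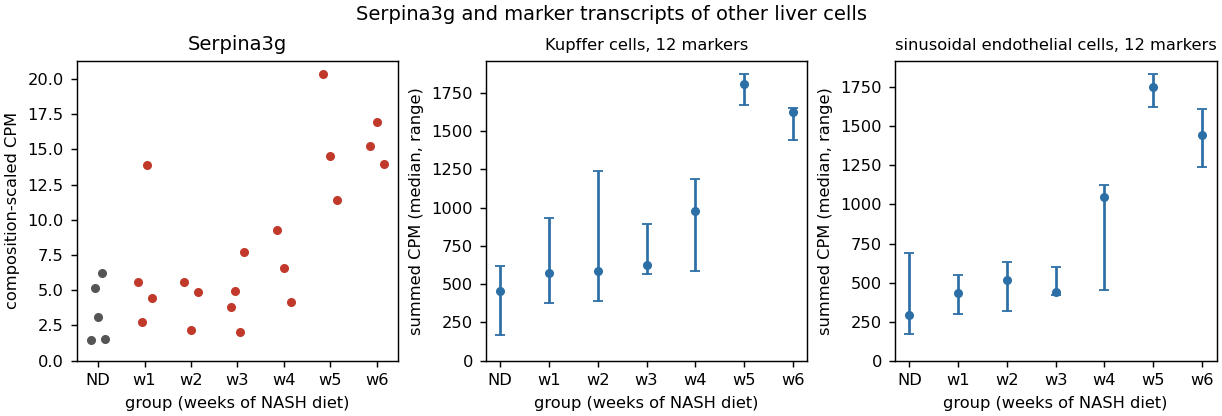
Serpina3g in composition-scaled CPM in each library (left), and the summed CPM of 12 Kupffer cell markers and of 12 sinusoidal endothelial markers as the median and range of each group (middle and right), on normal diet and at weeks 1 to 6 of NASH diet. All 3 panels are highest at weeks 5 and 6, where the Kupffer sum is 1439 to 1872 CPM, against 170 to 617 CPM on normal diet.

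The neighbouring paralog Serpina3f, which was not among the 9 members, gave 17.6 CPM at week 5 and 15.9 CPM at week 6, against 4.70 CPM on normal diet (means), with log2 fold changes of 1.86 ± 0.48 and 1.70 ± 0.49 (adjusted p = 0.00495 and 0.0128, edgeR). The windows before Serpina3g (chr12:104235897-104236146, plus strand) and before the first annotated start of Serpina3f (chr12:104214294-104214543, plus strand) are shown because both genes rose. Capitals mark matches to the STAT letters TTCNNNGAA and the C/EBP letters TTGCNNAA on either strand.
Serpina3g: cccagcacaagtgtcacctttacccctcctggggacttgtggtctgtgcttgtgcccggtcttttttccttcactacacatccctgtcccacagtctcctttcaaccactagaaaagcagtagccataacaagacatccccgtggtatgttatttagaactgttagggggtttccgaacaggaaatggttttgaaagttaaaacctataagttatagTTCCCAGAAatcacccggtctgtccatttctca
Serpina3f: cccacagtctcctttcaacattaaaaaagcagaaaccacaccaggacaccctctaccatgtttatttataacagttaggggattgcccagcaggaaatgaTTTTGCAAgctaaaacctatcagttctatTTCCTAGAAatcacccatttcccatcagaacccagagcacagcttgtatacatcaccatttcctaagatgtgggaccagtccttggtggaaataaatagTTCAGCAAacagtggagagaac
Serpina3g held a STAT match and no C/EBP match, and Serpina3f held 1 STAT match and 2 C/EBP matches. The Serpina3n window held none of the 3 motifs in exact letters. A near match to the STAT letters, such as ttaccagaa in that window, was not counted. Of all windows, 7.02% held the STAT letters and 9.56% the C/EBP letters. Any part of these letters in the changes was not tested.

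The genes whose 6 weekly log2 fold changes lay nearest to those of a called member, among 6203 other genes averaging 10 CPM or more, were found by the root mean square difference over the 6 weeks. For Serpina1e these were Mup7, a major urinary protein (0.25), Cyp7b1, an oxysterol hydroxylase (0.25), and Selenbp2, a selenium-binding protein (0.30). At week 5 they had log2 fold changes of -2.27, -1.74 and -2.42. Serpina3k was nearest to Cfhr4, a complement factor H-related gene, Ddc, the dopa decarboxylase gene, and Hc, the gene of complement component C5, at 0.069 to 0.079. Serpina3g was nearest to Ifi27l2a, Rac2, a GTPase of blood cells, and Apbb1ip, at 0.18 to 0.24. Serpina1b and Serpina1c shared Hsd11b1, which reactivates glucocorticoids, and Dpyd, which degrades pyrimidines, as the nearest pair, at 0.035 to 0.048. For Serpina1a the nearest were Ceacam1, Gjb1 and Rora (0.037 to 0.050), for Serpina1d Chchd10, Pemt and Suox (0.062 to 0.067), and for Serpina3m Tceal8, Gckr and Hnmt (0.13 to 0.15).

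Among the 8 other tested genes of serpin clade A, Serpina3f alone rose at weeks 5 and 6. Beside the list counts below, 19.1% of all genes rose and 16.3% fell at week 5, and 16.3% rose and 10.5% fell at week 6. With library size only, 31.9% rose and 3.07% fell at week 5, and 27.5% rose and 1.93% fell at week 6. Serpina10, the inhibitor of coagulation factor X with protein Z, fell by 0.85 log2 units at week 5 and 0.65 at week 6 (adjusted p = 0.000736 and 0.00799, edgeR), and with library size only the week 6 call was lost (-0.36, adjusted p = 0.132). Serpina11 fell at week 5 (-0.47, adjusted p = 0.00658, edgeR) and was not called with library size only (-0.13). Serpina6, corticosteroid-binding globulin, stood at -0.28 and -0.16, Serpina12 at -0.03 and 0.30, Serpina7 at 0.36 and 0.38, Serpina9 at -0.28 and -0.75, and Serpina3c at -1.07 and -0.45, none of them called. Of 14 serpins of other clades 3 rose and 6 fell at each week. They included Serpinc1, antithrombin, at -0.71 and -0.61, and Serpinb6a, an intracellular serpin, at 2.17 and 2.12. Both were also called with library size only, under which 5 of the 14 rose and 2 fell at week 5, and 4 rose and 1 fell at week 6.

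Of 7 tested target proteases 1 rose and 2 fell at each week, with Ctsb, cathepsin B, at 0.63 and 0.53 and Hpn, hepsin, at -0.52 and -0.43. Hpn was not called with library size only, under which 2 of the 7 rose at each week, and 1 fell at week 5 and 0 at week 6. Under that scaling 31.9% and 27.5% of all genes rose at weeks 5 and 6. Among 14 genes of interleukin 6 and STAT3 signalling, the pathway that drives acute phase genes in hepatocytes, 7 rose and 1 fell at week 5, and 5 rose and 1 fell at week 6. They included Jak1, a cytoplasmic kinase bound to cytokine receptors, at 0.67 and 0.62, and Cebpd, a transcription factor of the acute phase, at 1.70 and 1.17. With library size only 8 of the 14 rose at week 5 and 7 at week 6, and 0 fell at either week. Which cells these transcripts came from was not tested. Of 24 other acute phase genes 0 rose in edgeR's test and 9 fell at week 5, with a median of -0.43, against -0.05 for all genes tested, and 6 fell at week 6. C3, the third complement component, stood at -0.96 and -0.63 and Apcs, serum amyloid P, at -1.37 and -1.08. Under library size only 2 of the 24 rose and 3 fell at week 5, and 2 rose and 1 fell at week 6, where C3 was not called (-0.33, adjusted p = 0.130).

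Of 12 negative acute phase and abundant secreted proteins 10 fell at week 5 and 9 at week 6, and 5 and 2 did with library size only. Of all genes, 16.3% and 10.5% fell, and 3.07% and 1.93% did with library size only. Fetub, fetuin B, stood at -0.90 and -0.70, and was called under both scalings. Of 11 hepatocyte transcription factors 3 fell at week 5 and 2 at week 6, among them Cebpa at -0.54 and -0.40, and Hnf4a at -0.44 at week 6, but 0 did with library size only. Of 11 genes of growth hormone and STAT5 signalling 3 rose and 2 fell at week 5, and 2 rose and 3 fell at week 6. Igf1 fell (-0.59 and -0.56) and Igfbp3, whose level was 1.33 CPM on normal diet, rose (2.89 and 2.57). With library size only 3 of the 11 rose and 0 fell at each week, where 31.9% and 27.5% of all genes rose. Of 21 genes for export and quality control of secreted proteins in the endoplasmic reticulum, the route by which alpha-1-antitrypsin leaves the cell, 11 fell at week 5 and 8 at week 6, and 2 and 0 did with library size only. Sar1b, a GTPase of transport vesicles, stood at -0.61 and -0.50 and Uggt1, a folding sensor, at -0.56 and -0.61.

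Median log2 fold changes of these lists at week 5, beside -0.05 for all genes tested, were -0.28 for the other clade A serpins, -0.14 for the serpins of other clades, -0.31 for the target proteases and 0.52 for interleukin 6 and STAT3 signalling. They were -0.59 for the negative acute phase and secreted proteins, -0.47 for the hepatocyte transcription factors, -0.13 for growth hormone and STAT5 signalling and -0.46 for the endoplasmic reticulum genes. The median of the 9 members was -0.49, and -0.16 with library size only. Under that scaling, where the median of all genes was 0.28, 4 of the list medians turned sign: 0.05 for the other clade A serpins, 0.19 for the serpins of other clades, 0.02 for the target proteases and 0.20 for growth hormone and STAT5 signalling.

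Between week 6 and week 1 of the diet, 3 of 9 members fell, where 5% of all genes fell and 16.5% changed in either direction. The libraries of both weeks did not overlap for 5 members, those 3 and Serpina3g and Serpina3m, against 24.6% of all genes. Serpina1e differed by -1.47 ± 0.26 (adjusted p = 0.00112, edgeR), Serpina3k by -0.62 ± 0.16 (0.00866) and Serpina1a by -0.39 ± 0.12 (0.0233). Serpina1a was not called with library size only (-0.21, adjusted p = 0.180), nor without library 2 of week 1 or library 1 or 3 of week 6 (0.0914, 0.142 and 0.0739), and Serpina3k was not called without library 1 of week 6 (0.0590). Serpina3m differed by 0.45 ± 0.16 and missed the threshold here (adjusted p = 0.0541, edgeR), but was called higher in 7 of 10 settings tried, among them DESeq2 size factors (0.48, adjusted p = 0.0408) and library size only (0.63, adjusted p = 0.00394). Serpina1b and Serpina1c differed by -0.09 and -0.06, with 0.09 and 0.12 under library size only, and were not called.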

How the data were processed

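The authors deposited raw counts by gene symbol, checked here as whole numbers with totals that differ between libraries. Per the labels' protocols, cells were freed from the perfused liver with collagenase, pelleted at low speed and sorted, and the library kit (QuantSeq FWD) reads transcript 3′ ends. GRCm39, STAR 2.7.1a, cutadapt and FastQC are named in the submitters' processing notes. Neither the counting tool nor its annotation is named in the sources used here. Columns named WD were matched by week and number to the titles of the NASH diet samples.

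The counts were fitted in edgeR 4.0.16 (R 4.3.3), with filterByExpr by group, TMM factors and a robust quasi-likelihood fit over 7 groups and all 25 libraries. Adjustment was by Benjamini-Hochberg over 11869 genes. The fit was tested on simulated data. Alternatives used DESeq2 1.42.0, limma 3.58.1 (voom), other scalings, filters and sets of libraries. Ratio tests (scipy 1.17.1) added 1 count to each gene and permuted libraries exactly. No replicate pair of a group agreed within sampling noise (chi-square over degrees of freedom at least 5.42).

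Members and lists were chosen with earlier results of these data known. The text names all 9 members, every tested clade A serpin, the 2 genes of each other list with the smallest p at week 6, and the 3 genes nearest to each called member. Of marker lists, sums and the 2 genes with the highest mean CPM are given. Other markers named beside small counts were chosen after their values were seen.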

Additional observations from a re-analysis of the deposited data

Results flagged for a closer look

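Serpina1e in library 1 of week 3 had 15116 CPM, beside 8412, 7454 and 8517 CPM in the other libraries of that week. Its gap to the nearest of them took up 0.861 of the group's range. Of 27 groups of 4 or 5 libraries examined, 1 stood out this way, and chance gives about 1 in 20. The flagged library was also the highest of week 3 in Serpina3k (15717 CPM) and Serpina3n (545 CPM). Its hepatocyte marker sum, 66946 CPM, was the lowest of all 25 libraries. Chi-square over degrees of freedom ran 19.3 to 31.7 between it and the others of week 3, and 10.2 to 12.6 among those.

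The change against normal diet differed between week 6 and week 1 for Serpina1e (-1.47 log2 units, week 6 minus week 1), Serpina3k (-0.62) and Serpina1a (-0.39), tested as the contrast of the 2 weeks in edgeR. The difference of Serpina1a was not called with library size only.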

How the results depend on the processing

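Calls of Serpina1a, Serpina1e, Serpina3k and Serpina3g at weeks 5 and 6 held under every alternative tried, libraries left out included. Members called at week 4 numbered 2 in fits of the compared groups alone and 2 without normal-diet libraries 1 and 5, and between week 6 and week 1 they numbered 5 with limma voom. Over all genes, 243 and 198 were called at week 4 in the first 2 of these settings, against 983 in the main fit. Between week 6 and week 1, 2147 genes were called with limma voom, against 1956 in the main fit. Leaving out each library gave 1 to 4 members called at week 4 and 1 to 4 between week 6 and week 1. Calls over all genes in those fits are not given here. With library size only, changes near 0 turned sign: Serpina3k 0.072 (week 1) and 0.043 (week 3), Serpina3n 0.082 (week 1) and 0.11 (week 4), Serpina1b 0.035 (week 4), 0.088 (week 6 over week 1) and 0.010 (slope), Serpina1c 0.019, 0.12 and 0.022 in the same comparisons, and summed Serpina3 0.070 (week 1) and 0.060 (week 3). Without normal-diet libraries 1 and 5 the changes that turned were Serpina1e -0.097 and Serpina3n 0.054 (week 1), Serpina3g -0.19 (week 2) and -0.040 (week 3), and Serpina3n 0.049 (week 4). That setting left 6 against 3 libraries for ratios, where no adjusted p under 0.0556 was reached. Groups of that size have too few exact splits for a small p, so the missed threshold does not show a weaker ratio. In that setting the differences at weeks 5 and 6 were 1.18, 1.33, 1.33 and 1.13 for Serpina1a to Serpina1d over Serpina1e. They were 2.46 for Serpina3g and 0.97 for Serpina3m over Serpina3k. Serpina3g over Serpina3k at weeks 1 to 6 was 0.89 there and 1.34 with 5 counts added (adjusted p = 0.283 and 0.0541, exact test).

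In comparisons of 2 groups, replicate numbers did not pair diet libraries with those they were compared with. Of 66 same-numbered pairs over all groups 14 correlated above 0.1, and 9 of 25 libraries correlated best with their own number. Weeks 1 and 2 were the exception, all 3 of their pairs correlating at 0.358 to 0.406. Both weeks enter the slope and the ratio tests of weeks 1 to 6, which treated the libraries as independent. The slopes of Serpina1a, Serpina1e, Serpina3k and Serpina3g were called in all 10 settings, a replicate block included. The ratio tests were not repeated with a block. A replicate block turned Serpina1e to -0.057 and Serpina3n to 0.029 at week 1 and Serpina3n to -0.032 at week 2, ended the Serpina1c call at week 5 (adjusted p = 0.0716), and gave calls between week 6 and week 1 for Serpina3m and in the slope for Serpina3m and Serpina3n. Serpina3m was called in 7 of 10 settings between week 6 and week 1 and in 5 of 10 for the slope, so its calls are not particular to the block. The slope of Serpina3n was called in 1 of 10 settings, the block itself.

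Leaving out each library in turn spanned 0 for uncalled changes: at week 1 Serpina1e (-0.050 to 0.069), Serpina3k (-0.11 to 0.037) and Serpina3n (-0.17 to 0.083); at week 2 Serpina1b (-0.41 to 0.053), Serpina1c (-0.52 to 0.037), Serpina3g (-0.0036 to 0.56) and Serpina3n (-0.20 to 0.13); at week 3 Serpina3g (-0.0089 to 0.71) and Serpina3k (-0.17 to 0.046); at week 4 Serpina3n (-0.23 to 0.070); at week 5 Serpina3m (-0.057 to 0.21). Week 6 over week 1 gave Serpina1b -0.25 to 0.019 and Serpina1c -0.27 to 0.065, and the Serpina1c slope gave -0.058 to 0.0033. Ratios to Serpina3k ran 1.28 to 1.85 (Serpina3g), 0.43 to 0.62 (Serpina3m) and 0.30 to 0.39 (Serpina3n) at weeks 1 to 6, and 0.37 to 0.56 (Serpina3n) at weeks 5 and 6, and crossed the threshold in some. The cause was not tested. Counts of 7 to 46 limit Serpina3g on normal diet.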
